A study of Homo sapiens with 6 samples.

Results

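The 10 genes described here encode heterogeneous nuclear ribonucleoproteins (hnRNPs) that repress or switch splicing: HNRNPA1, HNRNPA2B1, HNRNPC, HNRNPD, HNRNPDL, HNRNPH1, HNRNPK, HNRNPL, HNRNPU and PTBP1. Members were picked by gene symbol, with earlier results of these data known. They account for 120 of the 92866 mRNA transcripts that the deposited tables list, and for 10 of 19871 gene symbols. LncRNA-sequencing was performed in HCT116, a line derived from a human colorectal carcinoma, with 6 libraries in 3 groups of 2. NC is the negative control, GAS5 was transfected with a plasmid for the long non-coding RNA GAS5, and siYAP was transfected with siRNA against YAP. The labels list all 3 groups under siRNA, and all cells came from this 1 line. The tables hold 1 value per group, the mean that the authors took of its 2 libraries, so no spread between libraries could be computed and no test was possible. The comparisons of GAS5 with NC and of siYAP with NC share the same NC values, so the 2 fold changes of a gene are not independent.

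hnRNPs coat nascent transcripts, and most of them carry RNA-binding domains of the RRM or KH type, often beside a glycine-rich tail. Many of them bind exonic or intronic silencers and keep the spliceosome from using a nearby splice site, against the action of SR proteins. They are abundant in dividing epithelial and cancer cells, and several of their own transcripts are alternatively spliced into protein isoforms with known names.

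Alternative coding segments separate named isoforms of 5 of the genes, and their sequences are shown because the isoform shares given later rest on them. Capitals mark the segment, and the 10 bases in lower case on each side are those next to it in the same transcript. They belong to neighbouring exons, except that the C2 segment is part of an exon and also borders the rest of that exon. Sequences and coordinates come from GENCODE 29 on GRCh38, matched by Ensembl identifier, with the coding strand written 5′ to 3′. The build that the authors used is not given in the sources used here.
B1 exon of HNRNPA2B1 (chr7:26197831-26197866, minus strand): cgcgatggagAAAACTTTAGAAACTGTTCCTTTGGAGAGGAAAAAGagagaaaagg
C2 segment of HNRNPC (chr14:21230958-21230996, minus strand): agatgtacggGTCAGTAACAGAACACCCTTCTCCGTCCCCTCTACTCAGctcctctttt
N-terminal AUF1 exon of HNRNPD (chr4:82371528-82371584, minus strand): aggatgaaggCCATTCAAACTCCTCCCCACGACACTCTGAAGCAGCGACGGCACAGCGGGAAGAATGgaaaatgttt
C-terminal AUF1 exon of HNRNPD (chr4:82356537-82356683, minus strand): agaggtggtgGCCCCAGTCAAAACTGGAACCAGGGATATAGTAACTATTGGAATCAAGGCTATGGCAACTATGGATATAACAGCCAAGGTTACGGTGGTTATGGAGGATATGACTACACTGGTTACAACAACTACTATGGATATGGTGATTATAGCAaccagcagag
DL exon of HNRNPDL (chr4:82426463-82426633, minus strand): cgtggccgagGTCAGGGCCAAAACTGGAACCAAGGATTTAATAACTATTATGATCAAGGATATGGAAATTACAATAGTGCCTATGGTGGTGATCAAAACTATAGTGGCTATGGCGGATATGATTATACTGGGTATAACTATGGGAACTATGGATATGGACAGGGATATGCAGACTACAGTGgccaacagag
PTBP1 exon 9 (chr19:805492-805569, plus strand): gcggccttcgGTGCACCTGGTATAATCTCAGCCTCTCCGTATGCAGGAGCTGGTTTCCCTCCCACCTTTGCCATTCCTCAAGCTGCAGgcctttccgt
All these segments are a multiple of 3 bases long, so including or skipping them keeps the reading frame: 12 codons for B1, 13 for C2, 19 and 49 for the AUF1 exons, 57 for the DL exon and 26 for PTBP1 exon 9. The C-terminal AUF1 exon and the DL exon lie at the same place in paralogous genes, and the longest run they share is 14 bases, caaaactggaacca. Pyrimidines make up 64.1% of the C2 segment and 62.8% of PTBP1 exon 9, against 36.1% of the B1 exon.

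The first question is whether either treatment went with a different level of these repressors. A gene sum is the total of estimated counts over the listed transcripts of a symbol, and treatment sums were scaled to the depth of NC by edgeR's TMM method before log2 fold changes were taken with a prior count of 2. Relative to NC, the siYAP group held less RNA of HNRNPH1, HNRNPA1, HNRNPA2B1, HNRNPD and HNRNPDL, by 1.25-fold to 1.36-fold with TMM scaling. HNRNPC, HNRNPK, HNRNPU and PTBP1 lay between -0.10 and 0.08 on the log2 scale in siYAP with TMM scaling, and HNRNPL was 1.12-fold lower. In the GAS5 group HNRNPA2B1 and HNRNPA1 were below NC and the other 8 genes were above it, HNRNPDL by the widest margin. The member sum was 0.606% of the NC total, 0.600% of the GAS5 total and 0.511% of the siYAP total.

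**Figure D1:**
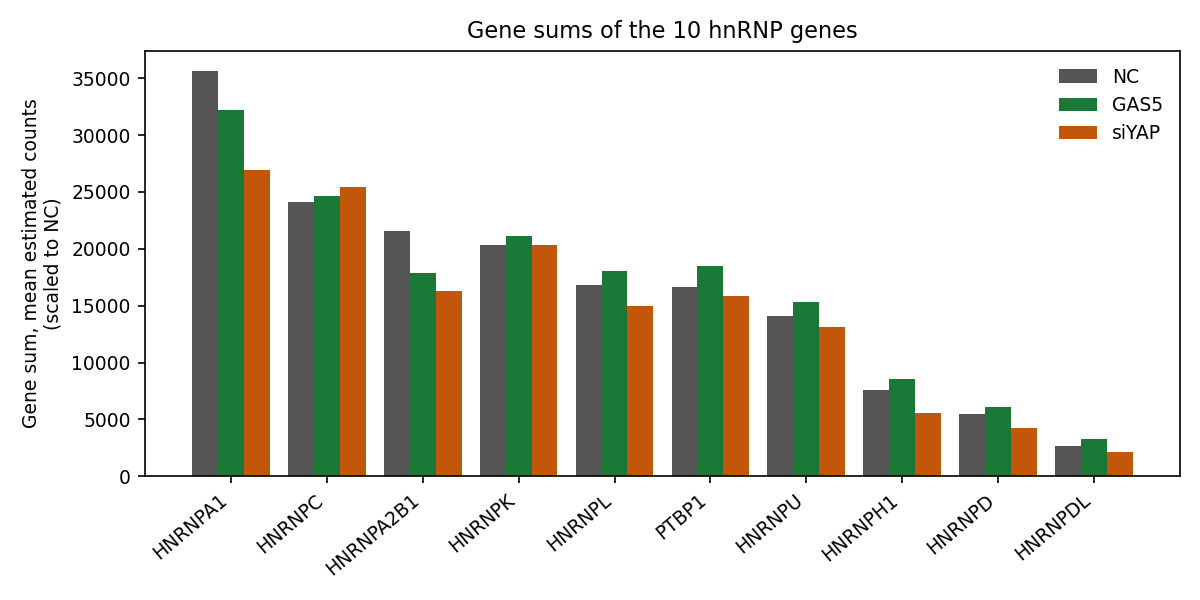
Gene sums of the 10 hnRNP genes in mean estimated counts, with GAS5 and siYAP scaled to NC, 1 bar per group and no error bars because each bar is a deposited mean. HNRNPA1 is highest in every group, and its siYAP bar (26969) is below its NC bar (35642).

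No gene sum of the 10 was past 1.5-fold in either comparison, where 4.46% of the 11907 genes with a mean sum of at least 50 were past it for GAS5 and 7.11% for siYAP. The median log2 fold change of the 10 was 0.11 for GAS5 (range -0.27 to 0.30) beside -0.0061 over all 11907 genes, and 0.063 by summed FPKM. For siYAP it was -0.25 (range -0.44 to 0.08) beside 0.02 over all genes. In siYAP 9 of the 10 genes were below 0, where 47.6% of all genes were, and in GAS5 2 of the 10 were, where 51.0% of all genes were. HNRNPA1 passed 1.5-fold in siYAP when its transcripts shared with other genes were left out (-0.62). A bulk measurement cannot tell fewer cells with a given RNA from less of that RNA per cell.

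**Figure D2:**
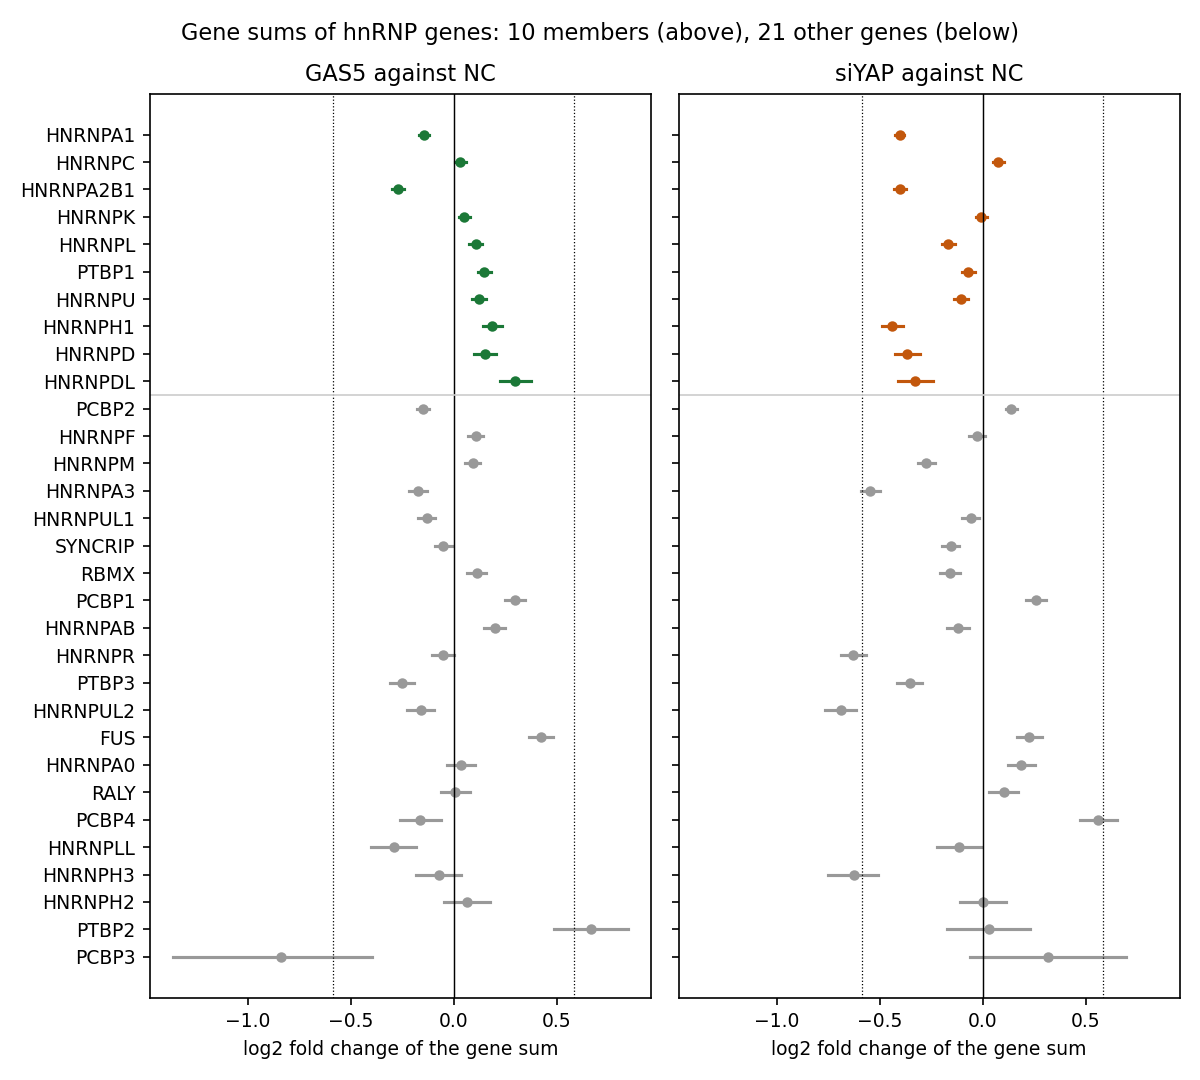
Log2 fold changes of gene sums for the 10 genes (coloured) and 21 other hnRNP genes (grey), with 95% exact counting intervals as lines and dotted lines at 1.5-fold. In siYAP 9 of the 10 coloured points lie left of 0, and none passes a dotted line.

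Among the A/B proteins, HNRNPA1 binds exonic and intronic silencers and also acts in microRNA processing, telomere upkeep and nuclear export. The gene (chr12:54280193-54287088) summed to 35642 mean counts for NC, 29800 for GAS5 and 24994 for siYAP, the highest sum of the 10 in each group. Its log2 fold change was -0.15 for GAS5 (95% exact counting interval -0.17 to -0.12) and -0.40 for siYAP (-0.43 to -0.38), the latter a 1.32-fold lower sum. Intervals of this kind cover counting error only, not the spread between cultures or the error in assigning a read to a transcript.

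HNRNPA1 shares much of its sequence with processed copies of the gene, so its values are uncertain. Of the 50-base stretches of its leading transcript HNRNPA1-202 and of HNRNPA1-201, 67.4% and 85.8% also occur in another annotated gene, mostly HNRNPA1P48. HNRNPA1-203, the longest of its main transcripts at 4121 bases, had 28.8% such stretches. Counted over HNRNPA1-203 and the assembled TCONS_00029214 alone, the log2 fold change was -0.31 for GAS5 and -0.62 for siYAP, and the siYAP value was then past 1.5-fold. Those transcripts are a part of the gene, so the values also carry differences in the share of HNRNPA1-203. Shared stretches of TCONS_00029214 were not counted.

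HNRNPA1-202 was the leading transcript of the gene in all groups, with 36.4% of the gene's counts for NC, 36.3% for GAS5 and 37.5% for siYAP. HNRNPA1-203, which codes for the common A1 form of 320 codons, had 19.98%, 17.9% and 17.3%. Its share was lower in both treatments than in NC, while that of HNRNPA1-202 was close to NC in GAS5 and higher in siYAP.

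HNRNPA2B1 binds UAG-type silencers and reads m6A marks on primary microRNAs. It lies at chr7:26173057-26201529 and summed to 21586.5 mean counts for NC, 16559.5 for GAS5 and 15140 for siYAP. Both treatments were lower than NC, with log2 fold changes of -0.27 for GAS5 (-0.30 to -0.24) and -0.40 for siYAP (-0.43 to -0.37). None of the 50-base stretches of its leading transcript HNRNPA2B1-202, which codes for the A2 form, occurs in another annotated gene.

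Between transcripts without and with the B1 exon, the split of HNRNPA2B1 was close in the 3 groups. HNRNPA2B1-202 held 94.4% of the gene's counts for NC, 94.5% for GAS5 and 94.9% for siYAP. Transcripts with the B1 exon, which adds residues near the N terminus, held 5.60% in NC (5.29 to 5.91), 5.47% in GAS5 (5.13 to 5.83) and 5.12% in siYAP (4.77 to 5.48). The intervals of all 3 groups overlapped. Within the B1 fraction, the transcripts did not move alike. HNRNPA2B1-201, which codes for 353 codons, had 707 mean counts for NC, 610 for GAS5 and 308 for siYAP. Its share was 3.28% in NC (3.04 to 3.52), 3.68% in GAS5 (3.40 to 3.98) and 2.03% in siYAP (1.82 to 2.27). The NC and siYAP intervals of that share did not overlap. HNRNPA2B1-209, a form of 261 codons, had 500, 296 and 467, or 2.32%, 1.79% and 3.08% of the gene.

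HNRNPC forms the core particle on pre-mRNA and binds uridine runs, where it keeps Alu-derived sequence from being spliced in as exons. The gene (chr14:21209136-21269494) summed to 24153.5 mean counts for NC, 22825.5 for GAS5 and 23599.5 for siYAP. After scaling it was close to NC in both, with log2 fold changes of 0.03 for GAS5 (0.01 to 0.06), which became -0.015 by summed FPKM, and 0.08 for siYAP (0.05 to 0.10), which became 0.020 by summed FPKM and 0.015 by total counts. It was the single gene of the 10 above NC in siYAP, unless the assembled transcript of HNRNPK is left out. Between 10.9% and 44.1% of the stretches of its main transcripts occur in other genes, mostly HNRNPCP2, so its values are uncertain to that extent.

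C1 and C2 are the known forms of HNRNPC, and C2 has the extra segment. Transcripts with the C2 segment held 41.95% of the informative counts in NC (41.3 to 42.6), 44.7% in GAS5 (44.1 to 45.4) and 39.3% in siYAP (38.7 to 39.9). The treatments thus lay on opposite sides of NC, with differences of 2.79 points for GAS5 and -2.63 points for siYAP, and the FPKM shares of 41.7%, 44.8% and 38.8% kept that order. The leading transcript was HNRNPC-205, a C1 form, with 44.3% for NC, 37.2% for GAS5 and 47.2% for siYAP. Its share differed from NC by more than any other leading transcript of the 10 genes in GAS5. A minor C1-type transcript, HNRNPC-227, had 25.04 mean counts for NC, 502 for GAS5 and 106 for siYAP.

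HNRNPK and HNRNPL bind cytosine-rich and CA-rich RNA through KH domains and RRMs respectively. HNRNPK (chr9:83968083-83980616) summed to 20369.5 mean counts for NC, 19518 for GAS5 and 18809 for siYAP. Its log2 fold change was 0.05 for GAS5 (0.02 to 0.08) and -0.0053 for siYAP (-0.03 to 0.02), and the siYAP value became 0.030 without its assembled transcript and -0.071 by summed FPKM. The GAS5 value was 0.089 without that transcript. The assembled transcript, TCONS_00143216, held 18.4% of the counts for NC, 16.3% for GAS5 and 16.4% for siYAP. HNRNPK-202 led with 58.8%, 58.0% and 60.6%. Of its stretches, 19.3% occur in other genes.

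HNRNPL (chr19:38836388-38852347), which represses exons such as the variable exons of CD45, summed to 16777 mean counts for NC, 16683 for GAS5 and 13863 for siYAP. The log2 fold changes were 0.10 for GAS5 (0.07 to 0.14) and -0.17 for siYAP (-0.20 to -0.13). A single transcript, HNRNPL-210, held 92.3% of the counts for NC, 91.2% for GAS5 and 91.4% for siYAP, although 49.4% of its stretches also occur in other genes. HNRNPL and HNRNPA2B1 were the 2 of the 10 genes with the highest share of counts on 1 transcript.

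PTBP1, the polypyrimidine tract binding protein, represses exons flanked by pyrimidine-rich tracts, including neuronal exons and the exon of its paralog PTBP2. The gene (chr19:797075-812327) summed to 16665.5 mean counts for NC, 17074.5 for GAS5 and 14726 for siYAP. The log2 fold changes were 0.15 for GAS5 (0.12 to 0.18) and -0.07 for siYAP (-0.10 to -0.04), and the siYAP value was -0.22 by summed FPKM and -0.13 by total counts. PTBP1-202 led with 47.8% for NC, 45.4% for GAS5 and 49.2% for siYAP, followed by PTBP1-201 with 36.2%, 39.1% and 35.8%.

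Exon 9 of PTBP1 lies in the linker between RNA-binding domains and is skipped in PTBP1-201, which codes for 531 codons. PTBP1-203, which holds it, codes for 557 codons, and PTBP1-202, which holds all or a stretch of it, for 527. The exon 9 share therefore does not separate longer from shorter proteins. How much of the exon PTBP1-202 holds was not determined, and in NC it had 7965 of the 9746 mean counts classed with the exon. Transcripts with all or a stretch of exon 9 held 60.8% of the informative counts in NC (60.02 to 61.5), 57.4% in GAS5 (56.7 to 58.2) and 61.8% in siYAP (61.0 to 62.6). The difference from NC was -3.37 points for GAS5, with intervals that do not overlap, and 0.988 points for siYAP, with intervals that do. The FPKM shares were 55.2%, 51.9% and 57.0%. None of the stretches of the main PTBP1 transcripts occurs in another annotated gene.

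HNRNPH1 binds runs of guanine and can silence or enhance exons depending on where they lie. It is at chr5:179614178-179634784 and summed to 7549 mean counts for NC, 7946 for GAS5 and 5161 for siYAP. Its siYAP log2 fold change was -0.44 (-0.49 to -0.39), a 1.36-fold lower sum. With TMM scaling this was the lowest of the 10 genes, at percentile 7.80 of all genes. By summed FPKM it was -0.41, above HNRNPD at -0.50 and HNRNPA2B1 at -0.46. For GAS5 the value was 0.19 (0.14 to 0.23).

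With 28 listed transcripts HNRNPH1 is the most divided of the 10 genes by number, but HNRNPH1-203 held 51.5% of the counts for NC, 51.3% for GAS5 and 52.1% for siYAP. HNRNPH1-201, which codes for the longest form of 472 codons, had 510 mean counts for NC, 618 for GAS5 and 154 for siYAP, or 6.75%, 7.78% and 2.98% of the gene. HNRNPH1-216 was listed at 0 in siYAP, with 56.7 mean counts in NC and 46.6 in GAS5. Transcripts annotated with an incomplete coding sequence made up 35.0% of the gene's counts for NC, 37.1% for GAS5 and 38.9% for siYAP.

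HNRNPD, also called AUF1, and its paralog HNRNPDL bind AU-rich elements and affect mRNA decay as well as splicing. HNRNPD (chr4:82352498-82374503) summed to 5439.5 mean counts for NC, 5591 for GAS5 and 3914 for siYAP. Its log2 fold change was 0.15 for GAS5 (0.10 to 0.21), which became 0.031 by summed FPKM. For siYAP it was -0.36 (-0.42 to -0.31), which became -0.50 by summed FPKM. HNRNPDL (chr4:82422564-82430408) summed to 2675.5, 3040 and 1977.5, with log2 fold changes of 0.30 for GAS5 (0.22 to 0.37) and -0.33 for siYAP (-0.41 to -0.24). After scaling, both paralogs were highest in GAS5 and lowest in siYAP. HNRNPH1, HNRNPK, HNRNPL, HNRNPU and PTBP1 had that order too, with HNRNPK close to NC in siYAP, so it was not particular to the paralogs.

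AUF1 proteins are named by size: p40 has the N-terminal exon, p42 the C-terminal exon, p45 both and p37 neither. No listed transcript with a complete coding sequence was classed as p37, so RNA of that form could not be told from the others. The p40 transcript HNRNPD-203 held 58.2% of HNRNPD counts for NC, 61.0% for GAS5 and 58.6% for siYAP. The p42 transcript HNRNPD-202 held 30.8%, 32.4% and 32.7%. The p45 transcript was listed at 0 in NC and siYAP and at 0.935 mean counts in GAS5, and a count of 0 allows a share of up to 0.0552% in NC and 0.0766% in siYAP. Among transcripts that span the C-terminal exon, 34.6% of counts held it in NC (33.3 to 36.0), 34.7% in GAS5 (33.4 to 36.0) and 35.8% in siYAP (34.3 to 37.4). Those intervals overlap. The N-terminal exon was held by 67.8% in NC (66.5 to 69.0), 65.7% in GAS5 (64.4 to 67.0) and 65.2% in siYAP (63.7 to 66.8), or by 71.1%, 67.2% and 67.3% of FPKM. The short HNRNPD-208, which holds that exon, had 362 mean counts for NC, 59.1 for GAS5 and 111 for siYAP.

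HNRNPDL had the widest difference from NC among the segments in GAS5 by count shares, but not by FPKM, where the N-terminal AUF1 exon, PTBP1 exon 9 and the C2 segment differed by more. The DL exon, near the C terminus, codes for the tyrosine-rich stretch printed above, and HNRNPDL-207 is the single listed transcript that skips it. That transcript had 48.5 mean counts for NC, 274 for GAS5 and 7.26 for siYAP. The share of HNRNPDL counts with the exon was 98.2% in NC (97.6 to 98.6), 91.0% in GAS5 (89.9 to 92.0) and 99.6% in siYAP (99.2 to 99.8). GAS5 differed from NC by -7.19 points, in size the largest difference in transcript share of any member in that comparison, and by -2.84 points by FPKM. In siYAP the largest was 5.54 points, for HNRNPDL-208, which codes for the longest form of 420 codons and held 13.7% for NC, 9.50% for GAS5 and 19.3% for siYAP.

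HNRNPU, also known as scaffold attachment factor A, binds RNA and chromatin and shapes nuclear organisation and splicing. At chr1:244840638-244864560, it summed to 14086.5 mean counts for NC, 14183 for GAS5 and 12143.5 for siYAP. Its log2 fold changes were 0.12 for GAS5 (0.09 to 0.16) and -0.10 for siYAP (-0.14 to -0.07), the latter -0.17 by total counts. Counts were spread over HNRNPU-204 with 32.3% for NC, 33.2% for GAS5 and 33.5% for siYAP and HNRNPU-201 with 30.3%, 29.2% and 30.03%. A segment of 19 codons in the first exon (chr1:244863617-244863673), present in HNRNPU-226 alone, was held by 11.0% of the informative counts in NC (10.2 to 11.7), 10.4% in GAS5 (9.64 to 11.1) and 10.6% in siYAP (9.83 to 11.5), with overlapping intervals. Of all HNRNPU counts, 48.8% were informative for it in NC and 46.5% in each treatment.

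**Figure D3:**
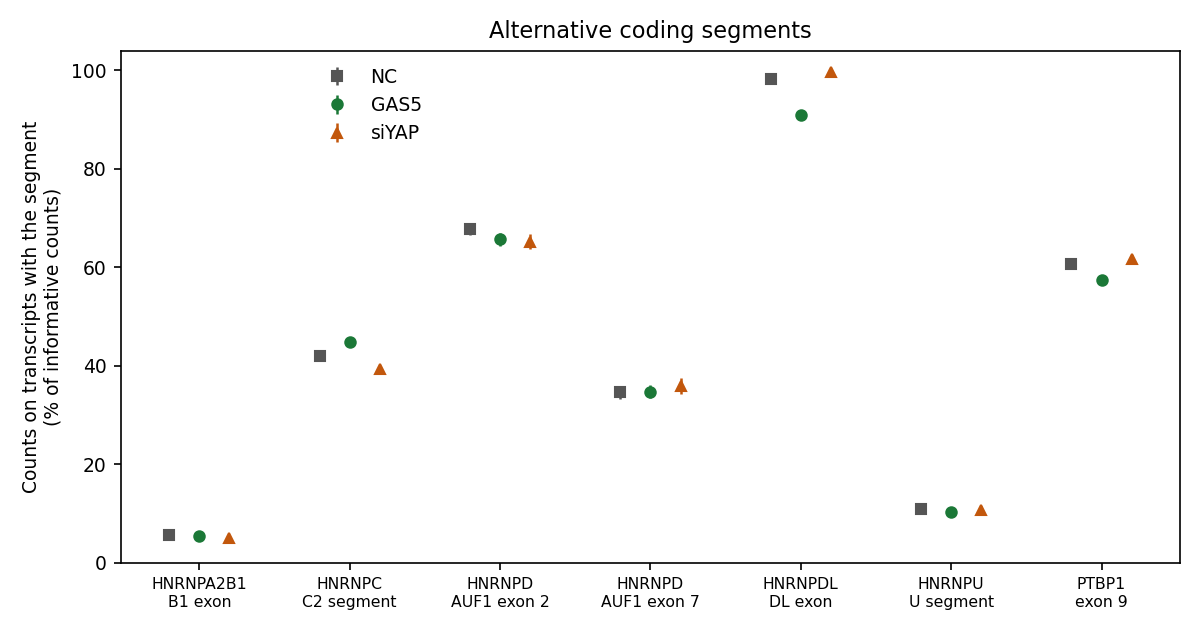
Share of informative counts on transcripts that hold all or a stretch of each alternative coding segment, by group, with 95% exact counting intervals (shorter than the symbols for most points). The DL exon share in GAS5 (91.0%) stands below NC (98.2%) and siYAP (99.6%), and the C2 segment lies above NC in GAS5 and below NC in siYAP.

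The second question is whether transcript use within each gene differed between groups. The leading transcript was the same in all 3 groups for 10 of 10 genes, and no transcript with a share of at least 10% in any group differed from NC by 10 percentage points or more. Among the 25 transcripts with such a share, log2 fold changes ran from -0.34 to 0.36 for GAS5 and from -0.73 to 0.17 for siYAP.

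**Figure D4:**
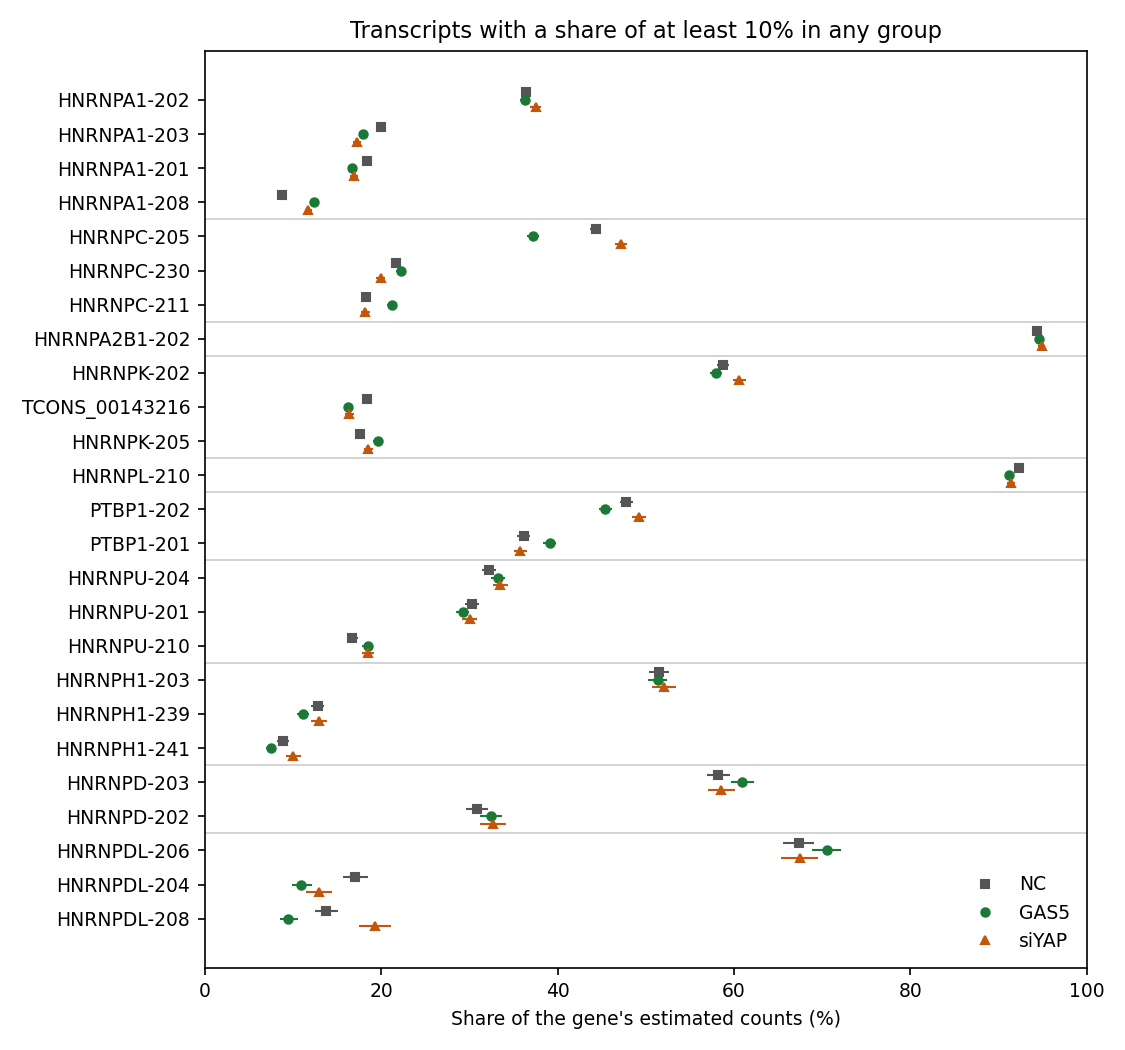
Share of the gene's estimated counts for the 25 transcripts with at least 10% in any group (squares NC, circles GAS5, triangles siYAP), with 95% exact counting intervals as lines and grey lines between genes. The leading transcript of each gene is the same in the 3 groups, and HNRNPC-205 and HNRNPDL-208 show wide spacing between GAS5 and siYAP.

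A share shift sums all differences in transcript share within a gene, as the percentage of counts that would have to move between transcripts to turn one group's shares into the other's. For GAS5 the 10 genes had a median shift of 4.32%, from 0.532% for HNRNPA2B1 to 10.4% for HNRNPDL. For siYAP the median was 3.40%, from 0.893% for HNRNPL to 7.16% for HNRNPH1. None of the 10 reached 20%, where 10% of the 10504 genes with at least 50 counts in every group did for GAS5 and 10.6% for siYAP. Shifts were smaller in deeply covered genes, and among the 4427 genes with at least 1000 counts 2.67% reached 20% for GAS5 and 2.62% for siYAP. The median of those 4427 genes was 3.65% for GAS5 and 3.43% for siYAP, and 3 and 5 of the 10 members lay below it.

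**Figure D5:**
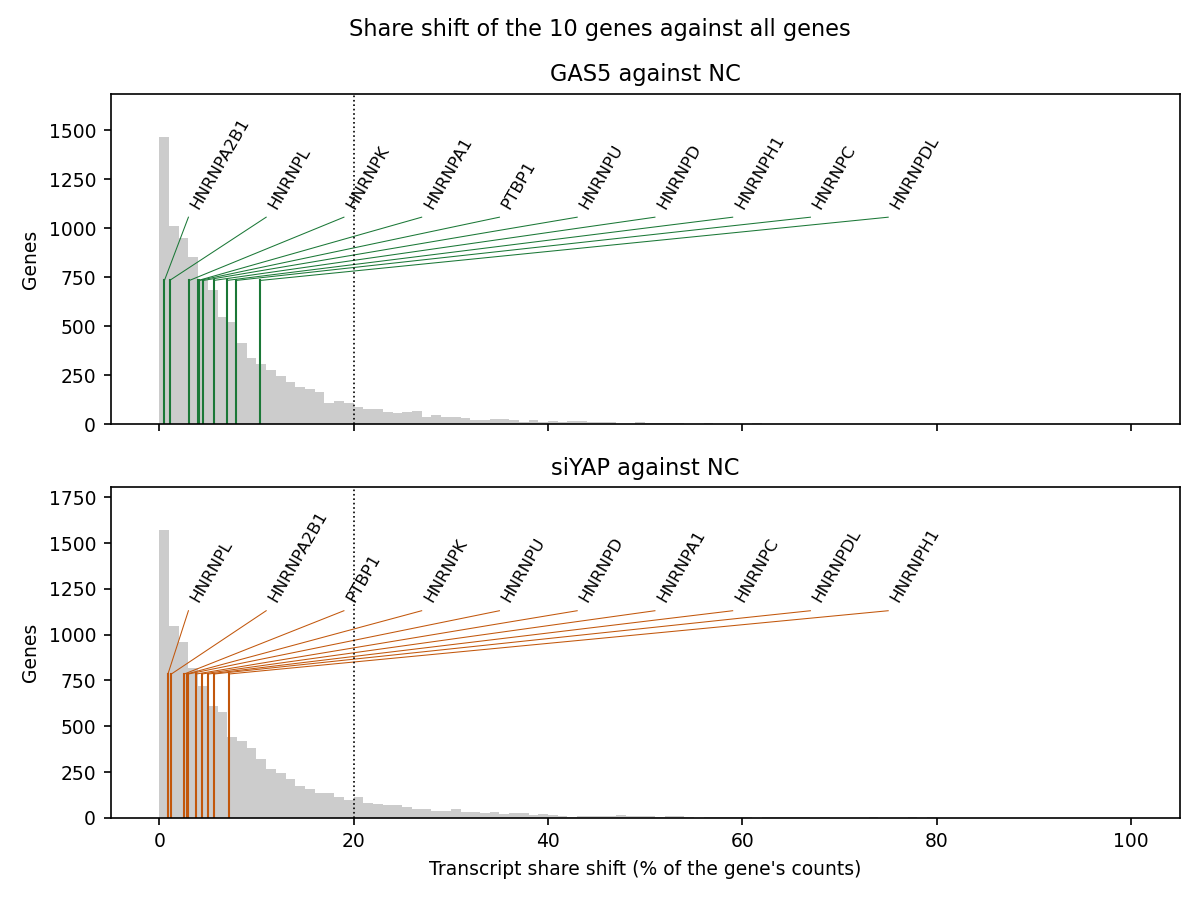
Distribution of the transcript share shift over 10504 genes (grey, genes per 1% bin) with the 10 hnRNP genes as coloured lines, for GAS5 and siYAP against NC, and the 20% limit dotted. All 10 lines lie left of that limit in both panels, with HNRNPDL farthest right for GAS5 (10.4%) and HNRNPH1 for siYAP (7.16%).

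Of the 120 transcripts, 18 were at 0 in all groups, 17 at 0 in some, with a highest mean count of 56.7, and 85 above 0 in all. A mean count of at least 20 over the groups was reached by 67. Past 2-fold were 6 of those 67 for GAS5, or 8.96%, where 14% of the 33622 transcripts with that minimum were. For siYAP 14 of 67 were past 2-fold, or 20.9%, where 15.1% of all were. With at least 10 counts in every group, which does not favour transcripts present in 1 group, the numbers were 5 of 66 for GAS5 beside 9.62% of all, and 12 of 66 for siYAP beside 10.4%. For siYAP 9 of the 14 were lower and 5 higher, and for GAS5 1 of the 6 was lower and 5 higher.

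These transcripts carry little of the members' RNA. Those past 2-fold for GAS5 held 0.304% of member counts in NC and 0.697% in GAS5, and those for siYAP held 1.83% in NC and 1.35% in siYAP. Chosen from that list after their values were seen, PTBP1-208 had 156 mean counts for NC, 231 for GAS5 and 10.7 for siYAP, and PTBP1-221 had 17.5, 73.5 and 27.5. HNRNPC-219 had 396, 248 and 74.5, while HNRNPC-222 had 248, 254 and 538. HNRNPC-223, which like HNRNPC-219 holds the C2 segment, had 45.7, 20.8 and 168. HNRNPH1-217 was above NC in both treatments, at 32.6 for NC, 124 for GAS5 and 129 for siYAP.

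For 7 of the 10 genes the sums lay within 0.02 of a multiple of 0.5 in every group, as the mean of whole reads over 2 libraries would. The sums of HNRNPA1, HNRNPH1 and HNRNPL did not.

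Among 21 other hnRNP and related genes, 11 were below NC and 10 above in GAS5, with 1 past 1.5-fold in each direction. Those were PCBP3, a KH protein, with 111 mean counts in NC and 56.5 in GAS5 (log2 fold change -0.84, -1.36 to -0.40), and PTBP2, with 423 for NC, 620 for GAS5 and 400 for siYAP (0.66 for GAS5, 0.48 to 0.85). In siYAP 12 were below NC and 9 above, and the 3 past 1.5-fold were lower: HNRNPUL2 at -0.69 (-0.76 to -0.62), HNRNPR at -0.63 (-0.69 to -0.57) and HNRNPH3 at -0.63 (-0.75 to -0.51). The median of the 21 genes was -0.05 for GAS5 and -0.06 for siYAP, beside 0.11 and -0.25 for the 10 members.

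Genes whose splicing hnRNPs are known to switch were also read by transcript. PKM, in which PTBP1, HNRNPA1 and HNRNPA2B1 favour the M2 exon, used the M2 transcript PKM-202 for 90.9% of counts for NC, 91.8% for GAS5 and 91.4% for siYAP. Over all transcripts informative for it, the M2 exon was held by 99.03% in NC (98.96 to 99.09), 98.6% in GAS5 (98.5 to 98.7) and 98.96% in siYAP (98.9 to 99.02). The 2 measures thus placed GAS5 on opposite sides of NC, by less than 1 point each. The first is a share of all PKM counts, which include the assembled TCONS_00047631 with 6.89% for NC, 5.69% for GAS5 and 6.70% for siYAP. That transcript could not be classed for the exon and is left out of the second. For the second measure, the NC and GAS5 intervals did not overlap. FAS, whose exon 6 is repressed by PTBP1 among others, held that exon in 78.1% of counts in NC (73.3 to 82.3), 79.4% in GAS5 (74.9 to 83.2) and 87.0% in siYAP (82.6 to 91.2), on sums of 342, 391 and 253 mean counts. The NC and siYAP intervals for FAS exon 6 did not overlap, and by FPKM the shares were 60.2%, 63.6% and 76.4%. The exon is held by FAS-204, the longest form, with 71.1% for NC, 63.7% for GAS5 and 55.1% for siYAP, and by FAS-202, a form of 233 codons, with 7.04%, 14.6% and 31.9%. CD44-201, the standard form of CD44, held 36.7% for NC, 36.7% for GAS5 and 38.6% for siYAP. Of its longer forms, CD44-206 held 24.3%, 24.0% and 23.6%, CD44-209 held 23.7%, 19.5% and 22.8%, and CD44-208 held 10.8%, 14.8% and 10.4%. MST1R-201, the full-length form of the RON receptor, held 25.3%, 16.2% and 11.5%, on sums of 1529, 1162 and 1405 mean counts. MST1R-202, of 1351 codons, held 22.7%, 20.4% and 23.3%, and MST1R-215, of 1294 codons, 11.9%, 13.9% and 20.7%. The leading MST1R transcript was the assembled TCONS_00102963, with 39.8%, 46.5% and 43.7%. Its form is not known, so the full-length share is uncertain.

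The labels were checked with the targeted gene and with cell markers. YAP1 had 3480 mean counts for NC, 2679 for GAS5 and 1444 for siYAP, a log2 fold change of -0.26 for GAS5 and -1.16 for siYAP. Of 8 epithelial markers EPCAM, CDH1, KRT8, KRT18, KRT19 and CDX2 had at least 395.5 mean counts in every group, KRT20 had 12 to 17 and VIL1 0 to 6. PTPRC and DCN were at 0 in all groups and CD3E and COL1A2 at most 1, with PECAM1 at most 6 and VWF at most 47. For COL1A1 the NC value was 378.5, against 556 in GAS5 and 540 in siYAP, and its part in the results was not tested. GAS5 itself is a long non-coding RNA, and its level is not analysed here.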

How the data were processed

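The authors sequenced total RNA of HCT116 cells in 6 strand-specific libraries, 2 in each of 3 groups. The tables deposited by the authors give, for each mRNA transcript, an expected count and an FPKM per group, each averaged by the authors over 2 libraries. The deposited expected counts are not normalized, and the deposited FPKM are scaled by transcript length and library size, with 0 written as 0.001. The deposited tables also hold the authors' fold change, p-value and FDR, which were not used. The submitters' processing notes name TopHat2 2.1.1. The genome build and the counting tool are not given in the sources used here.

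Both tables were joined by transcript identifier, and symbols were read from the siYAP table. The 10 members and all gene lists were chosen with earlier results of these data known. Named transcripts were the leading one of each gene in each group and any with a share of at least 10% that differed by at least 10 points, and 0 met the second condition. Others are named as chosen after their values were seen, as are those that decide the shares of a segment. Of the other hnRNP genes, those past 1.5-fold and PTBP2 were named.

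The mean counts of a group summed to 27206123 (NC), 25521577 (GAS5) and 26298036 (siYAP). Scaling to NC used TMM (edgeR 4.0.16, R 4.3.3) over 33622 transcripts, with factors of 1.08 for GAS5 and 1.08 for siYAP, and a prior count of 2. With 1 mean per group, the edgeR quasi-likelihood test was not possible. Intervals are exact (Clopper-Pearson, scipy 1.17.1, Python 3.11.15) at 95% on the deposited means, so they are wider than on the sum of 2 libraries. The 111 Ensembl transcripts were all found in GENCODE 29, and the other 9 were assembled by the authors. A transcript was informative for a segment if its exons lay on both sides of it, and it held the segment if an exon overlapped it. A further segment is not reported here. Shared sequence was counted in stretches of 50 bases over all GENCODE 29 transcripts. The steps were tested on simulated data. Alternatives were DESeq2 1.42.0 size factors, total counts, FPKM, a prior count of 0.5, Ensembl transcripts alone and other count minimums.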

Additional observations from a re-analysis of the deposited data

How the results depend on the processing

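Of 144 values recomputed under an alternative, 112 moved by less than their counting interval or within 1.5 times, 31 moved further and 1 reversed. The reversed one was HNRNPC for GAS5, whose log2 fold change was -0.015 by summed FPKM. HNRNPK for siYAP, whose interval spans 0, also changed sign, to 0.030 with Ensembl transcripts only. The members' median log2 fold change was 0.063 for GAS5 and -0.32 for siYAP by summed FPKM, and -0.31 for siYAP by total counts. Without a count minimum, 22 member transcripts were past 2-fold for GAS5 and 25 for siYAP. By FPKM the share differences from NC became -3.98 points for the N-terminal AUF1 exon and -2.84 for the DL exon in GAS5, and 0.570 for the DL exon in siYAP. The FPKM divides by transcript length, and the cause of the other moves was not tested. HNRNPA1 without the transcripts mostly shared with other genes, an alternative added after the data were seen, was at -0.31 for GAS5 and -0.62 for siYAP. DESeq2 size factors left the gene sums, the members' medians, the transcripts past 2-fold and the other hnRNP genes within those limits, and a prior count of 0.5 the gene sums and medians. No paired analysis was possible because values exist only as group means, and leaving out each replicate could not be run for the same reason. Depth limits mainly low-count transcripts, whose split between near-identical transcripts is estimated.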
